A study of Homo sapiens with 2 samples.

Results

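Transcript levels of 10 genes of the actin cytoskeleton were examined in 2 lung cancer cell lines. The genes were taken by symbol from the 27685 genes listed: the beta-thymosins TMSB10 and TMSB4X, the cytoplasmic actins ACTB and ACTG1, profilin (PFN1), cofilin (CFL1), the alpha-actinins ACTN1 and ACTN4, and the transgelins TAGLN and TAGLN2. They comprised 18 of the 63714 listed RefSeq transcripts. H2087 and H596 are established human cell lines, both labelled as lung adenocarcinoma, and both were grown untreated in serum-containing RPMI medium. RNA-seq was done on 1 library of each line. In the study, the H2087 library served to find highly expressed genes, and the H596 library was deposited beside it.

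Each cell line had 1 library, so no difference has a replicate check and no test between the lines was made. Levels are in FPKM, fragments per kilobase of transcript scaled to library size. The 95% intervals come from the Wilson interval of each gene's part of the summed counts, applied to its FPKM, and cover counting error only. The estimated counts summed to 46961500 in H2087 and 55387847 in H596. All 5 epithelial marker genes examined had an FPKM of at least 1 in both lines, and their sum was 7088 in H2087 and 3078 in H596. EPCAM (375 and 65.0), KRT8 (2493 and 536) and KRT18 (3607 and 234) were lower in H596, and KRT19 (561 and 2183) and CDH1 (52.3 and 59.6) higher. Of 5 lung adenocarcinoma lineage genes, 4 reached this level in H2087 and 0 in H596, where their summed FPKM was 0.719 against 263 in H2087. Of 6 squamous lineage genes, 6 reached it in H596 and 2 in H2087, with a summed FPKM of 533 and 40.8. The label of H596 as adenocarcinoma was thus not matched by these lineage markers. Of the 10 fibroblast and smooth muscle markers, 2 reached an FPKM of 1 in each line, and the sum over the list was 5.87 in H2087 and 17.3 in H596; ACTA2 is both one of these and a gene of the actin lists below. Of 5 leukocyte markers, 1 reached it in H2087 (CD79A, 3.72) and 0 in H596, with summed FPKM values of 4.15 and 0.334. The part of these markers in the results below was not tested. In bulk cultures such as these, fewer cells with a transcript and less of it per cell cannot be told apart.

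Actin monomers assemble into filaments that give epithelial cells their shape, adhesion and motility. Beta-thymosins bind monomers and hold them out of filaments, profilin loads monomers onto growing ends, and cofilin severs filaments and speeds their disassembly. Alpha-actinins cross-link filaments into bundles, and transgelins are calponin-related proteins that bind along filaments. Free monomer also holds back the coactivators of serum response factor (SRF), a transcription factor for which several actin genes are known targets.

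Paralogous members differ in how much of their coding sequence they share, which bears on whether reads can be told apart. The coding sequences shown are those of the transcripts tagged as MANE Select in the reference annotation of GRCh37, the same build as hg19. TMSB10 is coded on the plus strand within chr2:85133142-85133547, and TMSB4X on the plus strand within chrX:12994381-12994930; introns interrupt both. Both are 135 bases long, stop codon included. Lower case marks bases the genes share and capitals mark those that differ:

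TMSB10: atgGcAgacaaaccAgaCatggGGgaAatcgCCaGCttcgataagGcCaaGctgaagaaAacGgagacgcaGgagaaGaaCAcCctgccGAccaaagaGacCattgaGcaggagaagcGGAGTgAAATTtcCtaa

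TMSB4X: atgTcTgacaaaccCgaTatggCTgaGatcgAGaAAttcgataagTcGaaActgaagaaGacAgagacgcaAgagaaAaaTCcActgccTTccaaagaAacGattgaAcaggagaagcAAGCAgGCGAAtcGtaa

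The thymosin sequences differed at 37 bases (72.6% identity), which changed 11 of 44 residues. Their whole transcripts shared no exact run longer than 10 bases. The actins were far closer. ACTB is coded on the minus strand within chr7:5567379-5569288 and ACTG1 on the minus strand within chr17:79477716-79479380, each with 1128 coding bases. They were identical at 1029 of these bases (91.2%) and at 371 of 375 residues. All 4 differing residues lay within the first 60 bases, shown here with the same use of capitals:

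ACTB: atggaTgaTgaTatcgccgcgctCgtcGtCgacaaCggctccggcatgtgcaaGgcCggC

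ACTG1: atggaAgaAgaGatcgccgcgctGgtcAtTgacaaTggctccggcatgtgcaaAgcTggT

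The longest exact run shared by the ACTB and ACTG1 transcripts was 59 bases. For ACTN1 and ACTN4, identity over the aligned coding bases was 82.6%, with a longest shared run of 73 bases in the transcripts, and for TAGLN and TAGLN2 it was 70.7%, with a run of 19 bases. The reference annotation holds 63 pseudogenes named after members, among them 21 of ACTG1, 12 of ACTB and 11 of PFN1, of which 5 were listed in the deposited gene table. These 5, the antisense RNA of ACTN1 and 2 further actin pseudogenes held 192 counts in H2087 and 206 in H596 together. How reads matching several loci were divided is not given in the sources used here, so the values of the 8 members with such pseudogenes, TMSB10 and TMSB4X included, are uncertain to that extent.

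The beta-thymosins lay in opposite directions, and TMSB10 had the widest difference of the 10 genes. TMSB10 (gene 9168; chr2:85132763-85133799, hg19) reached 3380.2 FPKM (95% interval, 3357 to 3404) from 78092 counts in H2087 and 482 FPKM (473 to 490) from 13172 counts in H596. This was 7.02-fold higher in H2087, or a difference of -2.81 in log2(FPKM + 1), H596 minus H2087. TMSB10 ranked 4 among all genes in H2087 and 100 in H596. TMSB4X (gene 7114; chrX:12993226-12995346), the other main thymosin of epithelial cells, lay the opposite way. It reached 1085 FPKM (1073 to 1097) from 32710 counts in H2087 and 1617 FPKM (1604 to 1631) from 57726 counts in H596, a difference of 0.58. The intervals of the lines were apart for both genes, but they cover counting error only. They were also apart for members with small differences, ACTN1 (-0.26) and ACTN4 (0.22). TMSB10 thus exceeded TMSB4X by a ratio of 3.12 in H2087, and TMSB4X exceeded TMSB10 by a ratio of 3.36 in H596. Both thymosins together reached 4465 FPKM in H2087 and 2099 FPKM in H596, 2.13-fold higher in H2087. TMSB15A and TMSB15B, the other beta-thymosins listed, had 0 and 5 counts in H2087 and 0 counts each in H596.

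Both cytoplasmic actins were lower in H596, and ACTG1 by more than ACTB. These genes encode nearly identical proteins that form the filaments of non-muscle cells. ACTB (gene 60; chr7:5566779-5570232) reached 3086 FPKM (3074 to 3098) in H2087 and 1791 FPKM (1783 to 1799) in H596, from 268024 and 184155 counts, a difference of -0.78 on the log2(FPKM + 1) scale. ACTG1 (gene 71; chr17:79476997-79479892) reached 1900 FPKM (1891 to 1909) in H2087 and 412 FPKM (408 to 415) in H596, from 180688 and 46342 counts. Its difference was -2.20, a level 4.62-fold higher in H2087. The ratio of ACTB to ACTG1 was therefore 1.62 in H2087 and 4.35 in H596. Transcript NM_001614 carried 96.9% of the ACTG1 value in H2087 and 97.0% in H596, so the estimated division between the listed transcripts was nearly the same. The noncoding variant NR_037688 had 2.15% and 2.03%. ACTB fell short of a 2-fold difference in the FPKM values, with 1.72-fold. Both actins together reached 4986 FPKM in H2087 and 2203 FPKM in H596, 2.26-fold higher in H2087 and close to the summed thymosin level in either line, with a thymosin to actin ratio of 0.896 in H2087 and 0.953 in H596.

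PFN1 and CFL1 act on the monomer pool and on filament turnover. PFN1 (gene 5216; chr17:4848945-4852381) reached 939.5 FPKM (932 to 947) from 61471 counts in H2087 and 615 FPKM (609 to 620.1) from 47598 counts in H596, a difference of -0.61. CFL1 (gene 1072; chr11:65622285-65625804) reached 934 FPKM (926 to 942) from 56282 counts in H2087 and 431 FPKM (426 to 435) from 30712 counts in H596, a difference of -1.12. The intervals of PFN1 and CFL1 overlapped in H2087 and were apart in H596, where PFN1 exceeded CFL1 by a ratio of 1.43. The 2-fold call of CFL1 depended on the scaling: with values rescaled to TPM, which sums to the same total in each library, its difference was -0.93.

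The alpha-actinins differed little between the lines. ACTN4 (gene 81; chr19:39138256-39221172) reached 169.9 FPKM (168 to 172) in H2087 and 198 FPKM (196 to 199.5) in H596, a difference of 0.22. ACTN1 (gene 87; chr14:69340840-69446083) reached 63.0 FPKM (61.9 to 64.2) in H2087 and 52.3 FPKM (51.3 to 53.3) in H596, a difference of -0.26. Both are non-muscle cross-linkers of stress fibres and adhesions, and ACTN4 exceeded ACTN1 by a ratio of 2.70 in H2087 and 3.78 in H596. Counts of ACTN1 were 11266 in H2087 and 11070 in H596, and of ACTN4 32297 and 44482. Transcript NM_001102 carried 95.2% of ACTN1 in H2087 and 90.8% in H596. NM_001130005 had 0 counts in H2087 and 270 in H596, 2.44% of the gene. The last 341 bases of ACTN4 overlap CAPN12, which held 188 counts in H2087 and 0 in H596, few beside those of ACTN4. The muscle alpha-actinins ACTN2 and ACTN3 had at most 3 counts in each library.

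The level of TAGLN2 was far above that of TAGLN in both lines. TAGLN2 (gene 8407; chr1:159887897-159895332), the form of epithelial and blood cells, reached 631 FPKM (625 to 637) from 42806 counts in H2087 and 481 FPKM (476 to 486) from 38609 counts in H596, a difference of -0.39. TAGLN (gene 6876; chr11:117070040-117075508), a marker of smooth muscle, reached 3.01 FPKM (2.64 to 3.43) from 225 counts in H2087 and 2.20 FPKM (1.88 to 2.58) from 151 counts in H596. TAGLN2 exceeded TAGLN by a ratio of 209.9 in H2087 and 219 in H596. The TAGLN counts were placed on NM_001001522 alone in H2087, and on NM_003186 for 90.2% of the FPKM in H596. With these few counts the division between transcripts is an estimate whose error is not covered by the intervals. TAGLN also overlaps LOC100652768 over 2591 bases, a gene with 175 counts in H2087 and 122 in H596, so its low values are uncertain. Of the fibroblast and smooth muscle markers, ACTA2 had 125 counts in H2087 and 656 in H596, DCN 0 and 2361, COL1A1 1106 and 308, SPARC 85 and 0, LUM 0 and 4, and COL3A1 and MYH11 2 and 0 each. COL1A2, CNN1 and DES had 0 counts in both libraries. The part of these markers in the TAGLN values was not tested.

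**Figure D1:**
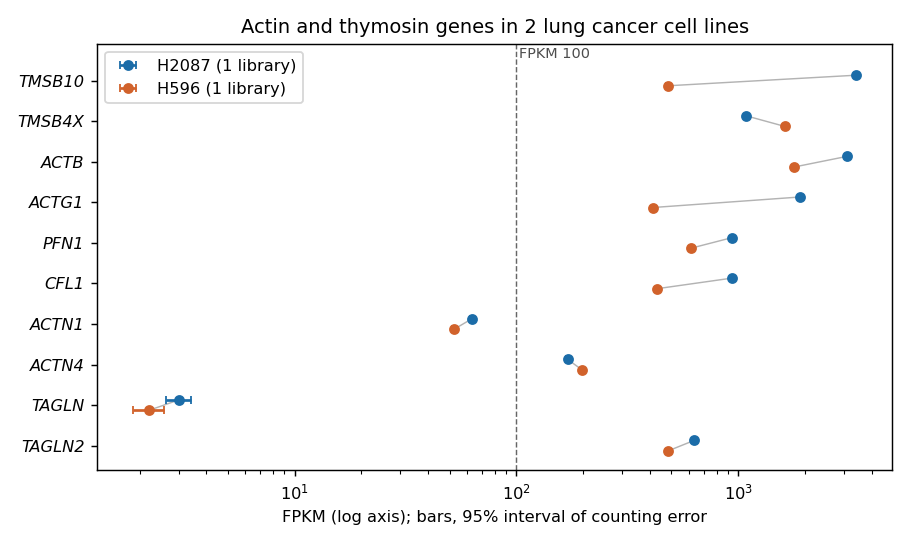
FPKM of the 10 genes (log axis) in the single library of H2087 (blue) and of H596 (orange), with 95% intervals of counting error, which are hidden by most points, and a dashed line at an FPKM of 100. TMSB10 and ACTG1 lie far lower in H596 (482 and 412) than in H2087 (3380.2 and 1900), TMSB4X and ACTN4 lie higher in H596, and ACTN1 and TAGLN lie below the line in both.

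Most of the 10 genes were among the most abundant transcripts of either line. Of the 10, 8 had an FPKM of at least 100, the level the study called high, in each line; ACTN1 and TAGLN did not. Over all listed genes, 2.54% reached this level in H2087 and 2.3% in H596. Among the 100 highest genes were 6 of the 10 in H2087 and 4 in H596. By level, the order in H2087 was TMSB10, ACTB, ACTG1, TMSB4X, PFN1, CFL1, TAGLN2, ACTN4, ACTN1 and TAGLN, with PFN1 and CFL1 within counting error of each other. In H596 it was ACTB, TMSB4X, PFN1, TMSB10, TAGLN2, CFL1, ACTG1, ACTN4, ACTN1 and TAGLN, with TMSB10 and TAGLN2 within counting error. Summed over the 10 genes, FPKM made up 2.60% of the H2087 total and 1.47% of the H596 total. TMSB10, ACTB and ACTG1 together held 68.6% of the members' level in H2087 and 44.2% in H596.

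Of the 10 genes, 3 (TMSB10, ACTG1 and CFL1) were at least 2-fold lower in H596 and 0 were at least 2-fold higher. Among the 13047 genes with a mean FPKM at or above 1, 14.2% were lower and 18.2% higher by this measure, 32.4% in either direction. The median difference of the 10 genes was -0.50, with 8 lower and 2 higher in H596. Over all these 13047 genes the median was 0.12, with 5852 lower and 7195 higher. Abundant genes as a whole lay lower in H596. Among the 120 genes with a mean FPKM at or above 500, 98 were lower and 22 higher. Of these 120, 35.8% were at least 2-fold lower, and their median difference was -0.67. Of the 10 genes, 7 belonged to this band, of which 3 were at least 2-fold lower, with a median difference of -0.78. The share of members called lower was thus near that of other abundant genes. Within the band of 120, TMSB10 had the fourth lowest difference and 4 genes lay as low, itself included, while 7 lay as low as ACTG1 and 36 as low as CFL1.

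**Figure D2:**
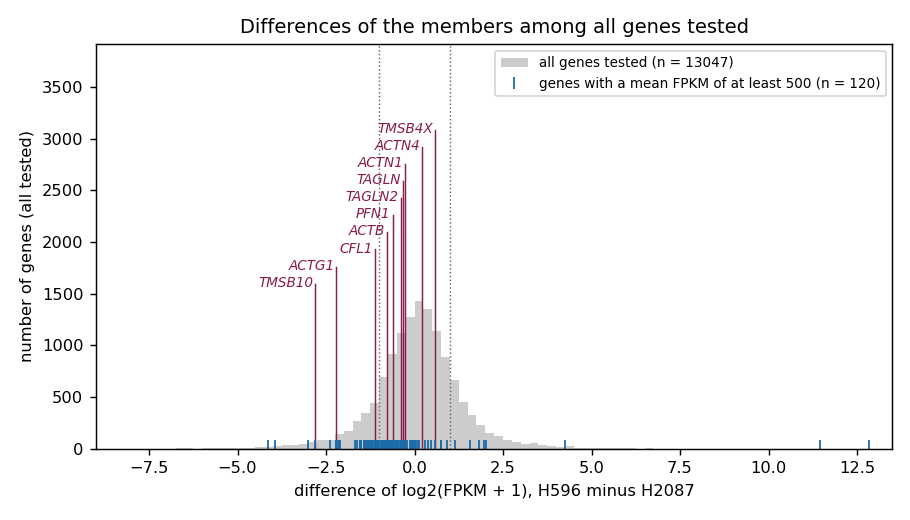
Histogram of H596 minus H2087 differences in log2(FPKM + 1) over the 13047 genes with a mean FPKM at or above 1 (grey), with the 10 genes as labelled lines, whose heights only separate the labels, and the 120 genes with a mean FPKM at or above 500 as blue ticks. Dotted lines mark 2-fold. TMSB10 at -2.81 and ACTG1 at -2.20 lie in the lower tail, and most blue ticks lie below 0.

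The differences of the 10 genes kept their signs with a pseudocount of 0.1 in place of 1, with TMM scaling of the counts, with centring on the median of all genes and with TPM. TMM, centring and TPM each move abundant genes by nearly the same amount, and sums over transcripts gave the values of the gene table again, so these are not separate checks of each gene. The median of all genes, 0.12 as deposited, was 0.01 with TMM and 0.30 with TPM. The difference of TMSB10 lay between -2.93 with TMM and -2.63 with TPM, and that of ACTG1 between -2.33 and -2.02. ACTN4, with 0.22 as deposited, came closest to 0 with TMM, at 0.09, and ACTN1, with -0.26, with TPM, at -0.09.

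**Figure D3:**
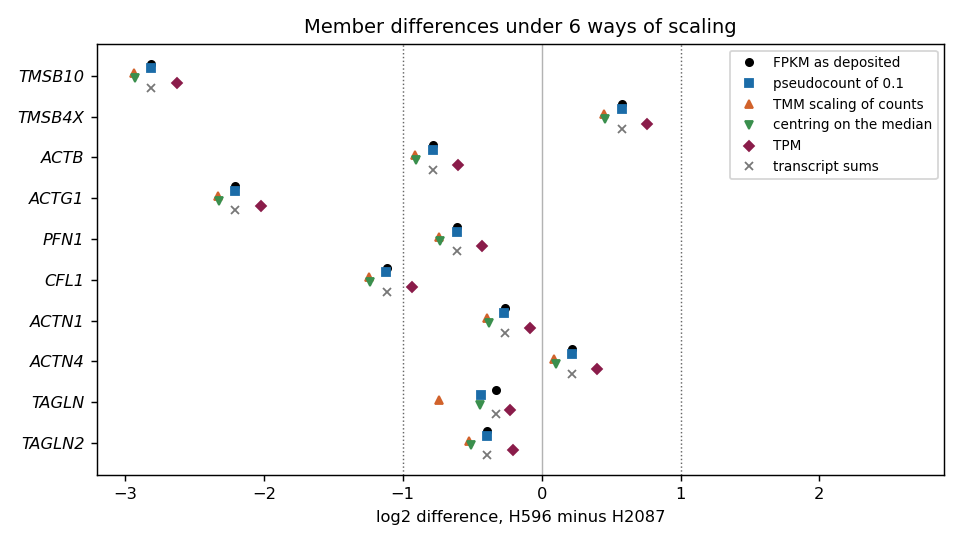
Log2 differences, H596 minus H2087, of the 10 genes from the FPKM values as deposited and under 5 other scalings, 1 symbol each; dotted lines mark 2-fold. TMSB10 and ACTG1 stay past 2-fold lower under all 6, CFL1 crosses the line with TPM (-0.93), and only TMSB4X and ACTN4 lie above 0.

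Other genes of the actin cytoskeleton were examined as 13 lists, of which 105 of 107 symbols were found. Without the 10 genes above, 79 of 95 had a mean FPKM at or above 1. Of these 79, 23 were at least 2-fold lower in H596 (29.1%, against 14.2% of all genes) and 12 at least 2-fold higher (15.2%, against 18.2%), and their median difference was -0.42. With the members included, 26 of 89 were lower and 12 higher. With TPM these numbers were 20 and 16. Among all 13047 genes, 1850 were lower and 2376 higher as deposited, and 1683 and 3211 with TPM.

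Regulators of the monomer pool and of turnover lay in both directions. PFN2, the other profilin with more than 100 counts, reached 109 FPKM in H2087 and 52.2 FPKM in H596, a difference of -1.05. Among 10 cofilin relatives, kinases and phosphatases other than CFL1, 2 were at least 2-fold lower and 3 higher in H596. These were 20% and 30%, against 14.2% and 18.2% of all genes. The LIM kinases, which inactivate cofilin by phosphorylation, lay in opposite directions: LIMK1 reached 50.5 FPKM in H2087 and 9.99 FPKM in H596 (a difference of -2.23), and LIMK2 5.47 and 24.7 (1.99). Of 4 transgelins and calponins with a mean FPKM at or above 1, CNN2 was lower (FPKM 133 against 64.7 in H596) and CNN3 higher (24.4 against 70.5).

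Among filament nucleators, 2 of 10 Arp2/3 complex genes and 5 of 10 formins were at least 2-fold lower in H596 by FPKM. No Arp2/3 gene and 1 formin were at least 2-fold higher. Over all genes, 14.2% were lower and 18.2% higher. Of the 10 Arp2/3 complex genes, which encode the machinery of branched filaments, 8 had a lower value in H596. Over all genes, 5852 of 13047 had a lower value. The 2 Arp2/3 genes past 2-fold were ARPC1A (-1.09) and ACTR3B (-1.81). ARPC3, the highest of the 10 in H2087, reached 225 FPKM in H2087 and 121 FPKM in H596. ARPC2, the highest in H596, had 216 and 261. ARPC4 had the largest difference towards H596, 0.84. Among 10 formins, which build unbranched filaments, 5 were at least 2-fold lower and 1 higher. DIAPH1, the most abundant, reached 104 FPKM in H2087 and 47.3 FPKM in H596. FHOD1 had 26.9 and 2.54, the largest difference of the list (-2.98), and DAAM1 had 4.99 and 17.4.

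Capping and severing factors had 7 of 17 genes at least 2-fold lower and 1 higher. These were 41.2% and 5.88%, against 14.2% and 18.2% of all genes. CAP1, a cyclase-associated protein that recycles actin monomers, reached 166 FPKM in H2087 and 81.0 FPKM in H596. FLII, a gelsolin relative, had 77.7 and 121. CORO1A, a coronin typical of leukocytes, had 19.2 from 1670 counts in H2087 and 0.738 from 77 counts in H596. CAP2 was the 1 gene past 2-fold higher, with 2.54 and 6.73. Of the 5 leukocyte markers, CD79A had 223 counts in H2087 and 6 in H596, CD14 had 33 and 15, LYZ had 0 and 9, and PTPRC and CD3E had 0 in both. Their part in the CORO1A difference was not tested.

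The cross-linkers other than alpha-actinins held the widest range, with 3 of 10 at least 2-fold lower and 1 higher. These were 30% and 10%, against 14.2% and 18.2% of all genes. The plastins, which bundle filaments, differed in opposite directions. LCP1, the plastin of blood cells that is also found in tumor cells, reached 32.3 FPKM from 5875 counts in H2087 and 0.0372 FPKM from 9 counts in H596. PLS3 reached 48.3 FPKM in H2087 and 137 FPKM in H596, the highest of the list there. FLNA, a filamin and the highest of the list in H2087, had 118 and 69.3.

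Filament-coating and contractile genes varied by paralog. Of 7 tropomyosins and tropomodulins, 1 was at least 2-fold lower (TPM2, 13.3 against 4.50 in H596) and 1 higher (TMOD1, 0.206 against 2.24). Each was 14.3% of the list, near the 14.2% and 18.2% of all genes. TPM4, the highest in both lines, had 158 and 138. Non-muscle myosin II, the motor of contractile filaments, had MYL6 as its highest gene, at 628 FPKM in H2087 and 365 FPKM in H596. MYH10, a heavy chain, had 17.2 and 5.36, and MYH14, another heavy chain, had 0.983 from 326 counts in H2087 and 38.2 from 14792 counts in H596. The difference of MYH14, 4.31, was the largest towards H596 over the 13 lists. SRF and its coactivators MKL1 and MKL2 all had higher values in H596, as did 7195 of all 13047 genes. Of the 3, 1 was past 2-fold higher, against 18.2% of all genes. SRF had 12.5 and 19.8, MKL1 3.98 and 9.02 (a difference of 1.01), and MKL2 6.16 and 11.4. MYOCD, the smooth muscle coactivator, had 0 counts in both. Among muscle actins, ACTA2 reached 1.47 FPKM in H2087 and 6.59 FPKM in H596, and ACTC1 and ACTG2 had 0 counts in both.

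**Figure D4:**
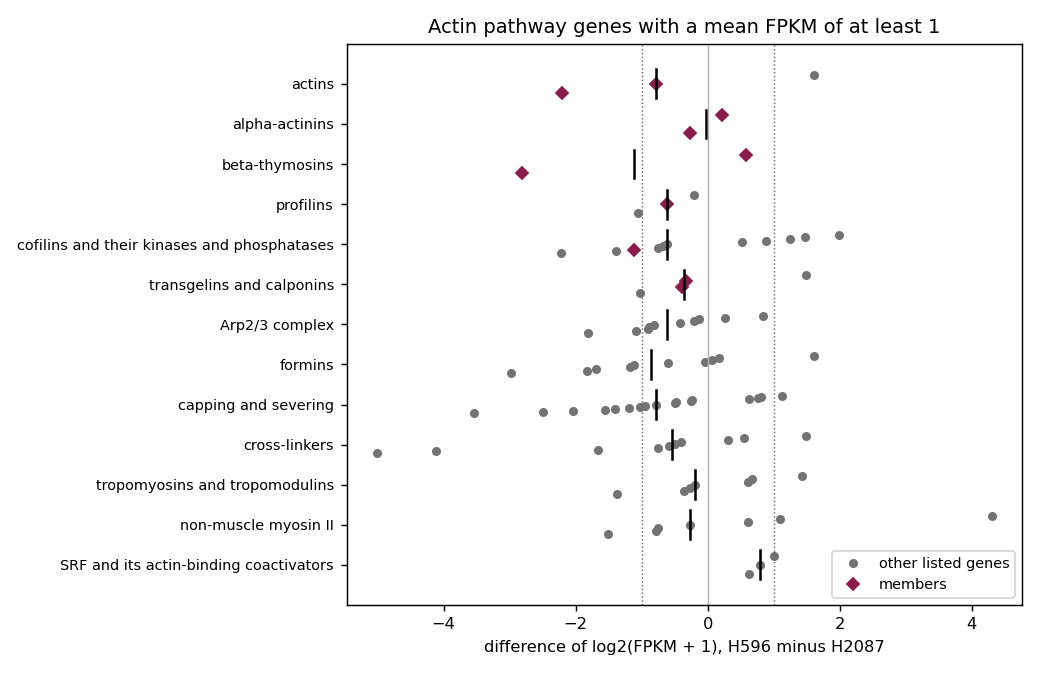
Differences in log2(FPKM + 1), H596 minus H2087, for the 89 genes of the 13 actin lists with a mean FPKM at or above 1; diamonds are the members, grey points the other genes, black bars the list medians and dotted lines 2-fold. The capping and severing list has 7 of 17 genes below the lower line, against 14.2% of all genes. The cross-linker LCP1 (-5.01) and the myosin MYH14 (4.31) are the extremes.

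The SRF binding motif, the CArG box, was sought in the RefSeq promoter table of build GRCh38.p14, from 250 bases before to 50 after each start; the motif reads the same on both strands. Of the 10 genes, 8 had an entry, ACTB and TAGLN not. A box was found for 2 of the 8: in the ACTG1 promoter, 94 bases before the start, and in 1 of 4 ACTN1 promoters, 171 bases before it. Counted by promoter, 2 of the 14 entries of these genes held a box, against 454 of all 35116 promoters (1.29%). The ACTG1 window, chr17:81512874-81512903 on the minus strand, is shown with the box in capitals, since ACTG1 was the member with the larger difference of the pair:

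ACTG1 promoter: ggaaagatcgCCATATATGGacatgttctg

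A match describes the letters of the window and is not evidence of binding in these cells.

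The 10 genes lie on 8 chromosomes, and their differences were set beside those of their neighbours. Neighbours were the 20 genes with a mean FPKM at or above 1 on each side, or fewer at a chromosome end. Of all 13047 genes at this level, 5852 had a lower value in H596. Among the 40 around ACTB, from 2281857 to 7288280 on chromosome 7, the median difference was 1.10, with 3 lower in H596. ACTB itself had -0.78. Around ACTG1 the 40 neighbours had a median of 0.14, against its -2.20. The neighbours of TMSB10 had a median of -0.46, with 31 of 40 lower, and those of CFL1 -0.32, with 28 of 40 lower, so both genes shared the sign of their neighbourhoods and lay further from 0. TMSB4X, at 0.58, lay below the median of its 37 neighbours on chromosome X, 1.07. PFN1 (-0.61 against a median of 0.28), ACTN1 (-0.26 against 0.60) and TAGLN2 (-0.39 against 0.53) had the opposite sign to their neighbours. So did ACTN4 (0.22 against -0.10), while TAGLN (-0.33 against -0.02) shared the sign. The part of chromosomal position in the differences was not tested.

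Genes with the most similar pair of levels were found by the distance between log2(FPKM + 1) values over the 2 libraries. Over so few libraries, this likeness only says that both levels were close. ACTG1 was nearest to NPM1 (FPKM 1911 in H2087 and 422 in H596), TMSB10 to KRT8 (2493 and 536), TMSB4X to ANXA2 (1134 in both), ACTB to RPS2 (2901 and 1760.3), CFL1 to ANXA1 (897 and 428) and PFN1 to PKM (947 and 592). TAGLN2 was nearest to RPS9, ACTN1 to METTL26, ACTN4 to CBX3 and TAGLN to PPARGC1B.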

How the data were processed

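Total RNA of untreated H2087 and H596 cells was made into stranded mRNA libraries, 1 per cell line, and sequenced on a HiSeq4000. The authors aligned the reads to hg19 with HISAT2 2.0.5 and estimated transcript abundance with StringTie 1.3.3b, and the submitters' processing notes also name bcl2fastq 1.8.4 and Trimmomatic. The estimated counts deposited for genes and transcripts are whole numbers taken as rounded estimates; in members with 1 transcript, each count was FPKM times length times a constant per library. The FPKM values deposited by the authors were used without further normalization. Read length and the handling of multi-mapped reads are not given in the sources used here.

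Libraries were compared by log2(FPKM + 1), H596 minus H2087, among genes with a mean FPKM at or above 1, keeping the higher row of a repeated symbol; this scale understates the change of low genes. A call is a 2-fold difference, not a test. Alternatives were edgeR 4.0.16 TMM scaling (R 4.3.3), TPM, centring, other pseudocounts, filters and folds. Intervals and calls were run on simulated counts with planted differences and counting error only. The simulation held no spread between cultures, so it says nothing about that error. Coding sequences came from GENCODE release 44 mapped to GRCh37, and translations were used only to count differing residues. From the actin lists, the highest gene in each library and the largest difference in each direction were named. CNN1, ACTC1, ACTG2, ACTN2, ACTN3, TMSB15A, TMSB15B, MKL2, MYOCD, ARPC1A and PLS1 were added with their values known. The members and lists were chosen with earlier results of these data known. The analysis used Python 3.11.15, numpy 2.4.6, pandas 2.3.3, scipy 1.17.1 and Biopython 1.88.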

Additional observations from a re-analysis of the deposited data

How the results depend on the processing

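Of the 10 members, 3 were past 2-fold as deposited, 2 with TPM and 5 at a 1.5-fold limit, where ACTB and PFN1 were added. Of all 13047 genes, 4226 (32.4%) were called as deposited, 4894 with TPM and 7123 at the 1.5-fold limit. At that limit 62 of the 89 genes of the actin lists were called, against 38 at 2-fold. With a mean FPKM at or above 10, 1986 of 6708 genes were called, since fewer genes were examined. The median difference of the members, -0.50, was -0.74 with TMM scaling, -0.62 with centring and -0.33 with TPM. Their share of the FPKM total, 2.60% for H2087 and 1.47% for H596, was 1.63% and 0.856% of the estimated counts, which are not per length, and 3.30% and 1.76% without mitochondrial and ribosomal protein genes; sums over transcripts gave 2.60% in H2087. The counts of members at the FPKM threshold of 100 moved by less than 1.5 times at 50, at 200 and by the highest single transcript. No paired analysis was possible because only a single library of each line was sequenced, and none could be left out for the same reason. Depth limits TAGLN, with 225 and 151 counts; for the other members the counting intervals are narrow, and the spread between cultures was not measured.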

Other observations

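The prothymosins share the thymosin name but are unrelated nuclear acidic proteins, and they were looked up after the thymosin values were seen. PTMA, which encodes prothymosin alpha, reached 1558 FPKM (95% interval, 1548 to 1568) in H2087 and 594 FPKM (588 to 599.5) in H596, 2.62-fold higher in H2087. PTMS, which encodes parathymosin, reached 86.7 FPKM (84.4 to 89.2) in H2087 and 33.2 FPKM (31.8 to 34.6) in H596, 2.61-fold higher in H2087. PTMA and PTMS were both lower in H596, as was TMSB10, while TMSB4X was higher there. The genes of a mean FPKM at or above 500 that had a lower difference than TMSB10 were CDK4 (FPKM 961 in H2087 and 54.0 in H596), KRT18 (3607 and 234) and FTL (2849 and 353). FLNC, a filamin typical of muscle chosen for its value, reached 24.3 FPKM from 10645 counts in H2087 and 0.460 FPKM from 239 counts in H596.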
